A study of Mus musculus with 9 samples.

Results

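Mineralised bone is made by osteoblasts, which lay down a collagen matrix, release phosphate beside it and add a small set of acidic proteins that bind mineral. In a joint these cells sit under the cartilage and beside the synovium, while the synovial lining, a layer of fibroblasts that secretes lubricin (Prg4) into the joint space, forms no mineral. Osteocalcin, which mice encode in Bglap and Bglap2, is the textbook protein of the mature osteoblast. A transcript of it in another cell type can be made by that cell, can come from a bone cell caught in the same droplet, or can be free RNA that leaked from broken bone cells.

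The genes described here were 9 of the 54534 listed in each library: Bglap, Bglap2, Ibsp, Spp1, Alpl, Dmp1, Phex, Smpd3 and Ifitm5. They were taken by symbol and had been chosen by their UMI counts across cell types of these same libraries, among them Bglap counts in lining cells, so their levels across cell types are a description and carry no test. Bglap and Bglap2 encode osteocalcin. Ibsp (bone sialoprotein), Spp1 (osteopontin) and Dmp1 encode acidic matrix proteins. Alpl encodes the tissue-nonspecific alkaline phosphatase that frees phosphate at the matrix, Smpd3 a neutral sphingomyelinase needed for normal mineralisation, Phex an endopeptidase of osteocytes that governs phosphate balance, and Ifitm5 a membrane protein of osteoblasts.

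The study compared knee synovial cells of different developmental origin at steady state and 6 days after a surgical scratch of the trochlear cartilage. All mice carried Gdf5-Cre;Tom;Pdgfrα-H2BGFP and were 11 to 12 weeks old, the injured mice at the older end of that range per the study's methods. Cells were sorted into Tom+ cells, which descend from Gdf5-expressing cells of the embryonic joint, and Tom-GFP+ cells, which do not but have an active Pdgfrα promoter. There were 2 Tom+ steady, 4 Tom+ injured, 1 Tom-GFP+ steady and 2 Tom-GFP+ injured libraries, which came from different mice within a group, and n counts libraries throughout. Since the sort kept tdTomato+ cells or GFP+ cells, immune and endothelial cells in these libraries were leftovers, and no library was sorted for bone cells.

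The libraries held 333 to 865 cell barcodes and 2866464 to 15033902 UMIs (unique molecular identifiers, each standing for 1 captured RNA molecule). After filtering, 4788 of 5161 barcodes were kept. The median was 8050.5 to 8647 UMIs per cell in the steady libraries and 12223 to 18567 in the injured ones. Depth thus differed by state, and as the gates count detected markers, it can change which cells pass them. The second Tom-GFP+ injured library stood apart with 147 failing barcodes, and 12 barcodes occurred in more than 1 library, among them 3 lining cells. Cells were placed in classes by marker genes, none of which is among the 9. Lining cells had Prg4 at 20 or more per 10000 UMIs, Clic5 at 1 UMI or more and no Thy1, and there were 649 of them. Lining markers outside the gate, Htra4 and Tspan15, were detected in 97.8% and 90.4% of these cells. The osteoblast-lineage class (311 cells with 2 or more of 8 markers such as Sp7 and Dlx5) was looser, with Sp7 detected in 30.5% of its cells. The share of its cells with 3 or more markers was 37.0% to 40.0% in the steady libraries and 9.38% to 30.8% in the injured ones. Cells with osteoblast and cartilage markers together formed an osteochondral class of 67 cells, and the Thy1+ fibroblasts numbered 1997.

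Bglap and Bglap2 are near copies that lie side by side on chromosome 3 of the mouse genome GRCm38.p6, at 88383501 to 88384464 and 88377736 to 88378699 on the minus strand, with the related Bglap3 at 88368616 to 88372743. Their coding sequences of 285 bases each differed at 4 positions, an identity of 98.6%, and the longest stretch they shared was 241 bases. The libraries read the 5′ end of transcripts, so the first 60 coding bases are shown, from the annotated transcripts, with the bases that differ from Bglap in capitals.
Bglap: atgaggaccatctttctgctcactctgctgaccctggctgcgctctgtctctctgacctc
Bglap2: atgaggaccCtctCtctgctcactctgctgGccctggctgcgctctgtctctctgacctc
Bglap3: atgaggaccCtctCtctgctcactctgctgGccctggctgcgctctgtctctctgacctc
Of the 4 differences between Bglap and Bglap2, 3 fell in this stretch, where Bglap2 and Bglap3 had the same letters. A read that covers only bases the copies share cannot be assigned to 1 gene. The split between Bglap and Bglap2 is thus uncertain, and so is that between Bglap2 and Bglap3. The sum of Bglap and Bglap2 avoids only the first of these. Dmp1 (104202613 to 104214102), Ibsp (104299171 to 104311469) and Spp1 (104435118 to 104441050) lie near each other on the plus strand of chromosome 5, while Alpl is on chromosome 4, Ifitm5 on 7, Smpd3 on 8 and Phex on X.

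The window of 250 bases before the start of Bglap, at chr3:88384467-88384716 on the minus strand, is shown because osteocalcin is the product whose UMIs lay outside bone. The table of promoter sequences from RefSeq, on GRCm38.p6, held 7 of the 9 genes, and Bglap2 was not among them. Capitals mark a match to the letters TGTGGT or their reverse complement ACCACA, the core that RUNX factors of bone are known to bind.
Bglap: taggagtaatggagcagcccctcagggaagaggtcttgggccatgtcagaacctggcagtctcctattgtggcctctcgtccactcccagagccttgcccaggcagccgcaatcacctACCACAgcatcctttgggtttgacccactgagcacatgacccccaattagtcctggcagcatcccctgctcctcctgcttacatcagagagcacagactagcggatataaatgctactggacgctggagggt
The same letters, on either strand, were in the first-listed windows of 2 of the 7 genes, Bglap and Spp1, in another window of Dmp1, and in 14.0% of 32851 promoter windows of this length. Letters of SOX factors (AACAAT) and FOX factors (TAAACA) were also searched for on either strand. Neither was in the Bglap window. They were in the first-listed windows of 0 and 1 of the 7 genes and in 9.42% and 12.0% of all windows. Runx2, the RUNX factor of osteoblasts, was detected in 6.16% of lining cells and in 43.4% of osteoblast-lineage cells. Whether any of these factors acts on Bglap in lining cells was not tested.

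Osteocalcin transcripts were found in most lining cells. At least 1 Bglap UMI was present in 376 of 649 lining cells, or 57.9% (95% exact Clopper-Pearson interval 54.0% to 61.8%, which covers counting error only), and Bglap2 was present in 78.3% (74.9% to 81.4%). Either gene was seen in 527 lining cells (81.2%) and both in 357. Immune cells, which are not known to make osteocalcin, had Bglap UMIs in 0 of 73 cells, and endothelial cells in 0 of 28. With the limit set at 3 cells, an approximation and not the exact interval, this allows shares of up to 4.11% and 10.7%. These limits pool cells over libraries. The steady libraries held only 2, 0 and 1 of the immune cells and 1, 3 and 0 of the endothelial cells, so the limits hardly cover them. The third Tom+ injured library held 33 of the immune cells. The endothelial cells were about as deep as the lining cells, with a median of 17056 against 17349 UMIs, while the immune cells had 8462. Bglap2 was seen in 1.37% of immune cells and in 0 of the endothelial cells.

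The share in lining cells also lay above that in other fibroblasts. Bglap was detected in 27.5% of Prg4+ Clic5- Thy1- cells, 3.41% of Thy1+ fibroblasts, 2.94% of tenocyte-lineage cells and 2.34% of mural cells. When each cell was thinned to 4000 UMIs to even out depth, the share was 31.5% in lining cells, 14.7% in Prg4+ Clic5- Thy1- cells, 1.71% in Thy1+ fibroblasts and 0 in immune, endothelial and mural cells. Lining cells, Prg4+ Clic5- Thy1- cells and Thy1+ fibroblasts stood in the same order before and after thinning. In the osteoblast-lineage class the share was 29.6%, or 21.7% after thinning, and in osteochondral cells it was 56.7%, or 46.2%. In the Tom+ steady libraries Bglap was found in 75.0% and 59.3% of osteoblast-lineage cells and in 69.6% and 46.9% of lining cells, while in the other libraries the osteoblast-lineage share was 6.25% to 40.0%. The most Bglap UMIs in 1 osteoblast-lineage cell ranged from 2 to 1745 over the libraries, against 41 at most in a lining cell.

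**Figure D1:**
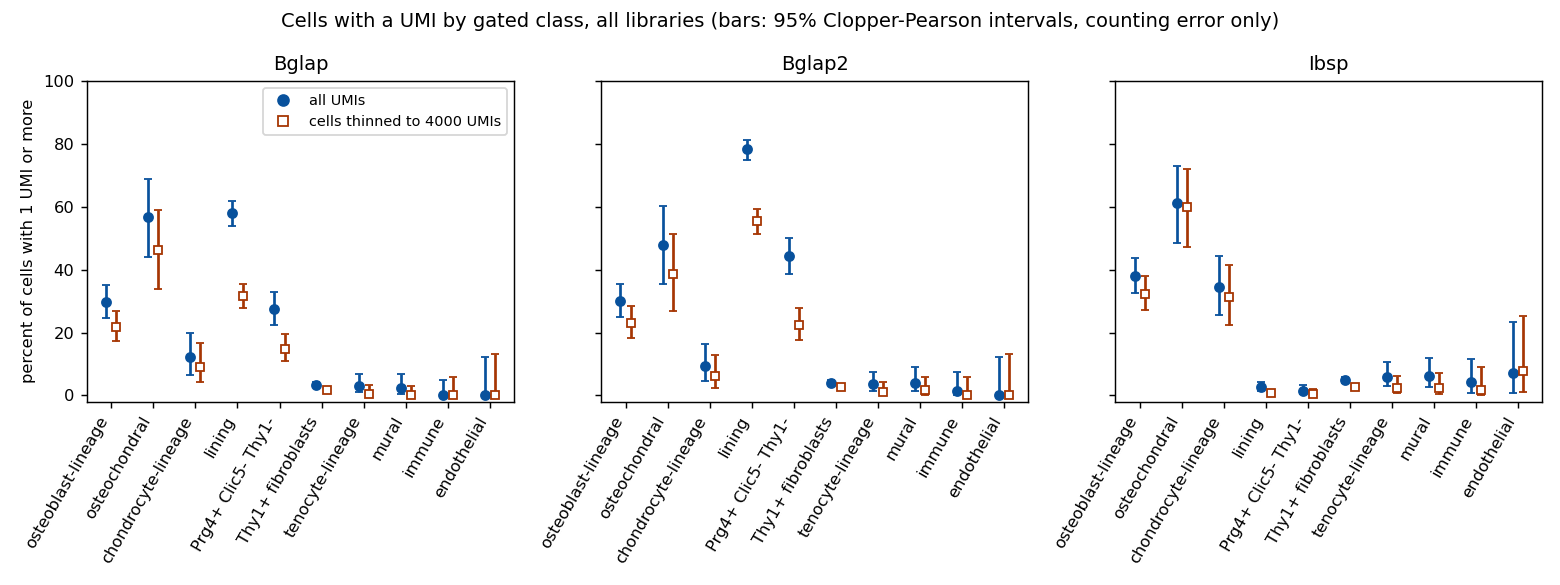
Percent of cells with at least 1 UMI of Bglap, Bglap2 and Ibsp in each gated class, over all 9 libraries. Circles show all UMIs, squares show cells thinned to 4000 UMIs, and bars are exact 95% binomial intervals. Lining cells stand at 57.9% for Bglap and 78.3% for Bglap2 but at 2.62% for Ibsp, while osteochondral cells are high for all of them.

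Most of the other bone genes were rare in lining cells. Ibsp was detected in 2.62% of lining cells, between the 1.32% of Prg4+ Clic5- Thy1- cells and the 4.91% of Thy1+ fibroblasts. In the 73 immune cells the share was 4.11%. In the second Tom+ steady library, 2 of 3 endothelial cells held 246 Ibsp UMIs, 231 of them in 1 cell, and 4 of 11 mural cells held 34. The endothelial and mural gates were thus not free of bone RNA. Whether the Ibsp UMIs of lining cells were background was not tested. By contrast Ibsp was detected in 61.2% of osteochondral, 37.9% of osteoblast-lineage and 34.6% of chondrocyte-lineage cells. Alpl was detected in 0.924% of lining cells, Dmp1 in 0.154% and Phex in 0.154%. Ifitm5 was found in 0 of 649 lining cells, which allows up to 0.462% by the same approximate limit. It was found in 10.6% of osteoblast-lineage and 19.4% of osteochondral cells. Smpd3, at 7.70% of lining cells, and Spp1, at 34.2%, were present there and in most other classes. In the Tom+ steady libraries Smpd3 was found in 5 of 23 and 10 of 32 lining cells against 3 of 20 and 5 of 54 osteoblast-lineage cells. Per 1000000 UMIs of the class this came to 43.1 and 69.2 Smpd3 UMIs in lining and 55.3 and 54.5 in osteoblast-lineage cells, so the levels of the classes were near each other.

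Levels were then compared per library as CPM (the UMIs of a gene per 1000000 UMIs of the class in that library), with only libraries of 10 or more cells in that class. Each UMI is 1 molecule, so a CPM is not scaled by gene length and is compared here between classes for 1 gene at a time. For Bglap the order of the medians was osteoblast-lineage 1940 CPM (24.4 to 7470, n = 9), osteochondral 658 CPM (29.8 to 1320, n = 4), lining 119 CPM (57.8 to 233, n = 8), chondrocyte-lineage 56.4 CPM (0 to 94.9, n = 7), Prg4+ Clic5- Thy1- 55.6 CPM (21.3 to 117, n = 6) and Thy1+ fibroblasts 7.56 CPM (0.455 to 32.8, n = 9). Every lining library lay above every Thy1+ library. The lining range overlapped that of each of the other classes named, so only the step down to the Thy1+ fibroblasts was larger than the spread between libraries.

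Bglap2 gave the same first ranks, with medians of 1440 CPM in osteoblast-lineage, 430 CPM in osteochondral, 339 CPM in lining and 142 CPM in Prg4+ Clic5- Thy1- cells, and 15.6 CPM in Thy1+ fibroblasts. The lining values, 150 to 607 CPM, again all lay above the Thy1+ values, 3.64 to 38.6 CPM. Ibsp had a different order. Its median was 10300 CPM in osteochondral, 1110 CPM in chondrocyte-lineage, 572 CPM in osteoblast-lineage and 9.29 CPM in Thy1+ cells, and 0.942 CPM in lining cells (0 to 6.14). The lining range of Ibsp lay wholly below those of the osteochondral, chondrocyte-lineage and osteoblast-lineage classes and overlapped that of the Thy1+ fibroblasts.

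**Figure D2:**
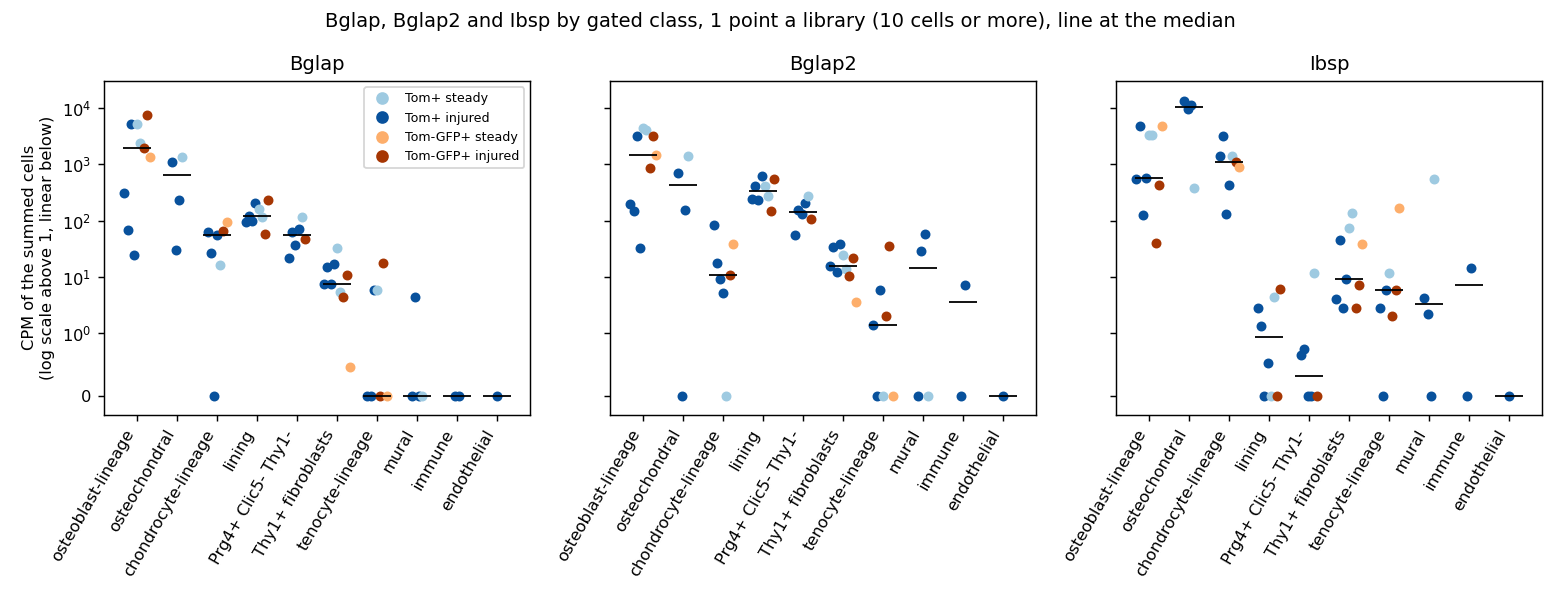
CPM of Bglap, Bglap2 and Ibsp in each gated class, on an axis that is logarithmic above 1 and linear below. Each point is a library with at least 10 cells of the class, coloured by group, and the line is the median. Lining libraries lie at 57.8 to 233 CPM for Bglap and at 0 to 6.14 CPM for Ibsp.

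The remaining genes were highest in the bone and cartilage classes, with exceptions for Spp1 and Phex. Alpl had its highest median in osteochondral cells (600 CPM), followed by chondrocyte-lineage (147 CPM) and osteoblast-lineage cells (109 CPM). Smpd3 followed, with 342 CPM in osteochondral and 12.2 CPM in osteoblast-lineage cells, and so did Ifitm5, with 86.2 and 18.3 CPM. Dmp1 was highest in osteoblast-lineage cells at 27.3 CPM. Spp1, which macrophages also make, had a median of 2650 CPM in immune cells (n = 2), 2550 CPM in osteochondral and 1800 CPM in osteoblast-lineage cells, with overlapping ranges. Phex was low throughout, and its highest median was 12.2 CPM, in cells that passed no gate.

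Across 42 sums of a class in a library (8 classes, 20 or more cells each), the genes whose log2(CPM + 10) profile was most like that of Bglap, outside the 9, were Bglap3 (Pearson r = 0.886), Phospho1 (0.745), B3gat3 (0.688), Susd5 (0.687) and Ccdc12 (0.683), among 11117 genes ranked. Bglap2 stood at 0.961 and Ibsp at 0.462. The genes most like Ibsp were Ptprd (0.860), Fgfr2 (0.855), Omd (0.826), Itga10 (0.821) and Cd200 (0.820), with Alpl at 0.842. The sums share libraries and depth, and these values describe likeness only. Bglap3, whose coding sequence was 95.4% identical to that of Bglap, had a median of 22.0 CPM in lining cells, with its split from Bglap2 uncertain. Phospho1, a mineralisation gene outside the 9, was not rare in lining cells. It was detected in 18.5% of them, against 22.5% of osteoblast-lineage, 50.7% of osteochondral and 3.56% of Thy1+ cells. Its levels over all libraries were 13.0, 49.6, 198 and 3.08 CPM in the same order. B3gat3 and Ccdc12 were spread more evenly, at 64.5 and 180 CPM in lining and 36.1 and 94.3 CPM in Thy1+ cells over all libraries.

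Within the lining, osteocalcin was spread over many cells. The 10 lining cells with the most Bglap held 14.5% of the 1465 Bglap UMIs of the class. The share of cells with a Bglap UMI in the libraries with 10 or more lining cells ran from 35.3% to 90.6%, both ends being Tom-GFP+ injured libraries. The library at 90.6% was the one with 147 failing barcodes, and the highest Tom+ library, at 73.0%, had 80, against 1 to 51 in the others. The first Tom+ steady library, at 69.6%, had only 2, and the library at 35.3% had 49. The part of failing barcodes in the spread was not tested. In the osteoblast-lineage class the spread over cells varied by library. In the Tom+ steady libraries its top cell held 39.4% and 16.8% of the Bglap UMIs, against 20.8% and 24.1% in lining cells. Some injured libraries were far more concentrated. In the third Tom+ injured library 1714 of 1723 osteoblast-lineage Bglap UMIs lay in 1 cell, and in both Tom-GFP+ injured libraries 1 cell held 1745 of 1746 and 1739 of 1776. The bone level of a library could thus rest on 1 captured cell.

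Cells with osteocalcin were next asked for other bone genes. Of the 527 lining cells with Bglap or Bglap2, 66 (12.5%) had a UMI of any of Ibsp, Dmp1, Phex, Smpd3 and Ifitm5, and 16 (3.04%) had Ibsp. In the osteoblast-lineage class 102 cells had Bglap or Bglap2, and 80.4% of them had another of these genes and 79.4% had Ibsp. In osteochondral cells the shares were 97.4% and 74.4% of 39 cells, and in Thy1+ fibroblasts 22.1% and 16.3% of 104 cells. Among the bone markers, Sp7 was found in 0.154% of lining cells, Panx3 in 0.154% and Mepe in 0, while Cgref1 was found in 26.7%. Of the lining cells, 25 also passed the osteoblast-lineage gate.

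The question of whether the osteocalcin UMIs of lining cells look like free RNA was put to the make-up of bone UMIs. Free RNA from 1 source keeps its genes in 1 ratio in every cell type of a library. The measure was the share of Bglap in the UMIs of Bglap and 6 companions, namely Bglap2, Ibsp, Dmp1, Phex, Smpd3 and Ifitm5, in lining cells minus that in osteoblast-lineage cells of the same library, over the 6 Tom+ libraries. Since Bglap in lining cells was among the values that chose these genes, the test is not independent evidence that the lining holds more Bglap. In lining cells the share was set mainly by the uncertain split between Bglap and Bglap2, as Ibsp, Dmp1, Phex and Ifitm5 were nearly absent there. The test therefore could not decide the question, and no conclusion is drawn from its p-value. The lining share was 26.5% and 25.2% in the steady and 27.8%, 22.6%, 29.3% and 24.8% in the injured libraries, and the osteoblast-lineage share was 40.0% and 23.4%, then 25.7%, 1.26%, 60.5% and 3.80%. The lining values lay close together and the osteoblast-lineage values on both sides of them. The 1.26% and 3.80% came from only 52 and 6 Bglap UMIs in osteoblast-lineage cells. The mean difference was 0.25 percentage points ± 20.3 (SD, n = 6), higher in lining in 4 of 6 libraries (exact 2-sided sign-flip permutation test, p = 1.0, the smallest possible p being 0.0312).

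That measure counts Bglap2, the near copy of Bglap, among the companions. With Bglap2 left out, the Bglap share was higher in lining cells in 6 of 6 libraries, by 48.0 percentage points ± 39.5 (SD, n = 6). In an alternative chosen after seeing the data, Bglap and Bglap2 were counted together. They made up 92.5% and 84.1% of the bone UMIs of steady lining cells and 98.5%, 98.4%, 99.2% and 98.6% in injured ones. In osteoblast-lineage cells they made up 74.1% and 64.1%, then 42.1%, 4.06%, 97.4% and 8.86%. The lining value was the higher in 6 of 6 libraries, though by little in the third Tom+ injured library, where 1 cell held nearly all bone Bglap. The mean difference was 46.8 percentage points ± 39.3 (SD, n = 6), and it was 52.5 percentage points with all other kept cells as the source. These are descriptions of how Bglap sits among the other bone genes.

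None of the 14 settings of this test passed after adjustment over them. The smallest exact p was 0.0312, in the 3 settings described above. It came to 0.146 by the Benjamini-Hochberg method, and the other adjusted values lay between 0.438 and 1.0. No exact p could fall below 0.0312 with 6 libraries, 0.0625 with 5 or 0.25 with 3. The settings also share their libraries, so the adjustment could hardly be passed and no conclusion is drawn from it. With the source class restricted to cells of 3 or more markers, only 3 libraries remained, and the difference for both osteocalcin genes together was 57.2 percentage points, higher in 3 of 3. With barcodes that failed the cell filter as the source it was 39.1 percentage points, higher in 4 of 5. In the Tom-GFP+ injured libraries, which did not enter the test, the osteocalcin genes made up 98.6% and 98.5% in lining and 98.1% and 94.1% in osteoblast-lineage cells. Here the 2 classes were near each other, and the osteoblast-lineage values again came from 1 cell per library.

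**Figure D3:**
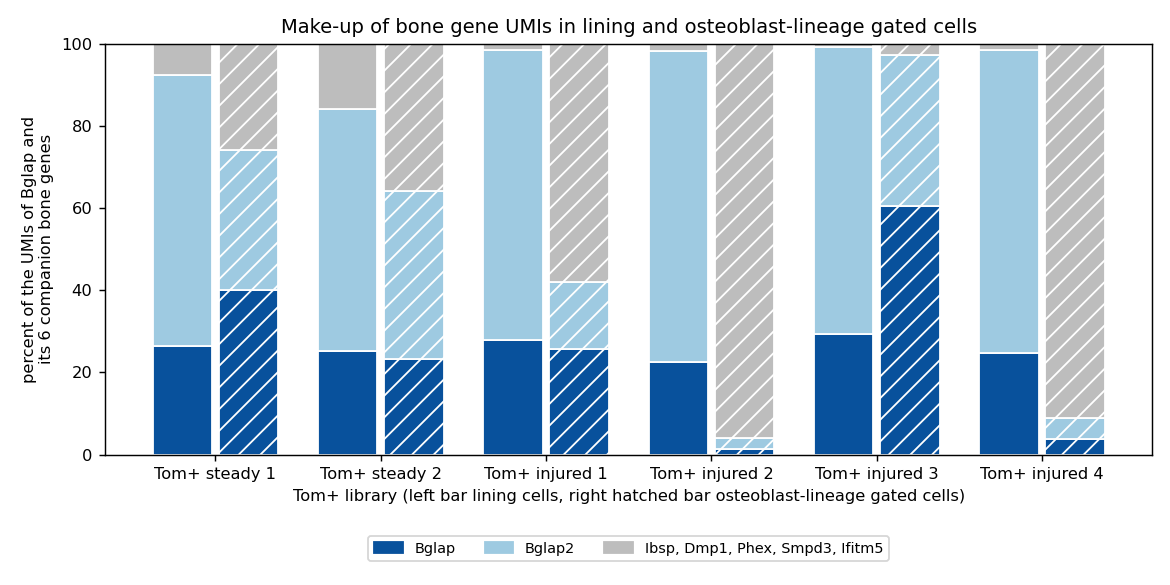
Percent of the UMIs of Bglap and its 6 companion bone genes taken by Bglap, by Bglap2 and by the other 5 genes, in each Tom+ library. Left bars are lining cells and hatched right bars are osteoblast-lineage cells. Bglap alone is at 22.6% to 29.3% in every lining bar, and the other 5 genes take less than Bglap2 in each of them.

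The ratios behind these shares differed by gene. For each Bglap UMI there were 2.33 to 3.36 Bglap2 UMIs in lining and 0.609 to 2.23 in osteoblast-lineage cells, and the ratio was higher in lining in 6 of 6 Tom+ libraries. Per Bglap UMI, Ibsp stood at 0 to 0.037 in lining and 0.0244 to 71.2 in osteoblast-lineage cells. The 71.2 came from the second Tom+ injured library, with only 52 Bglap UMIs in that class. Ibsp was lower in lining in 6 of 6 libraries. Smpd3 did not share this pattern, with 0.0233 to 0.593 per Bglap UMI in lining and 0.00638 to 0.5 in osteoblast-lineage cells, and was higher in lining in 4 of 6. Bglap3 was higher in lining in 5 of 6 and Spp1 in 3 of 6. In all, the lining cells of these libraries held 3680 Bglap2 UMIs, 200 Bglap3 UMIs, 98 Smpd3 UMIs, 12 Ibsp UMIs, 1 Dmp1 UMI, 1 Phex UMI and 0 Ifitm5 UMIs. Pmf1, which lies next to Bglap on the chromosome, had 6.15 to 15.1 CPM in the lining libraries with 10 or more cells. Which of free RNA, shared droplets and transcription in lining cells gave the osteocalcin UMIs was not tested beyond these ratios.

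Injury did not detectably change osteocalcin in the lining. The question was tested on summed UMIs over all genes with edgeR's quasi-likelihood test, with libraries as replicates, and a gene was called at an adjusted p under 0.05. In lining cells 347 of 9323 genes tested were called between Tom+ injured and Tom+ steady libraries, or 3.72%, and 1899 had an unadjusted p under 0.05. Of the 9 bone genes, 5 passed the filter on low counts. Of these, Spp1 rose, and Bglap and Bglap2 were not called. Smpd3 and Alpl were called as lower but passed the filter only with the steady libraries counted. Ibsp, Dmp1, Phex and Ifitm5 were too low to be tested. The median log2 fold change was -0.02 over the 5 and 0.01 over all genes.

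Bglap in lining cells was 163 and 117 CPM in the Tom+ steady libraries and 96.0, 121, 97.4 and 204 CPM in the Tom+ injured ones. The groups overlapped at both ends, with a mean of 140 ± 32.7 (SD, n = 2) against 130 ± 50.8 CPM (SD, n = 4). The log2 fold change was -0.02 (SE 0.48, adjusted p = 0.99). Bglap2 was 406 and 272 CPM at steady state and 244, 407, 233 and 607 CPM after injury, again overlapping, with a log2 fold change of 0.22 (SE 0.50, adjusted p = 0.863). The sign of both changed between alternatives. The Tom-GFP+ injured libraries spanned 57.8 and 233 CPM for Bglap and 150 and 553 CPM for Bglap2. At steady state the Tom-GFP+ library held only 2 lining cells and entered no test, so no injury effect could be computed for that lineage.

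Smpd3 was 43.1 and 69.2 CPM in steady Tom+ lining cells and 2.23, 6.76, 2.54 and 11.2 CPM in injured ones. All injured values lay below both steady values. The gene passed the low-count filter only with the steady libraries counted, so its call is not support for a fall. The log2 fold change was -3.25 (SE 0.54, adjusted p = 0.0144). This rested on 14 and 32 steady UMIs, and the call was lost without either steady library, with an adjusted p of 0.0707 or 0.151 (2.98e-14 without the low-count filter to 0.151 over all 14 alternatives).

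Spp1 was 0 and 99.5 CPM at steady state and 622, 557, 396 and 230 CPM after injury, with no overlap. It rose by 3.12 on the log2 scale (SE 0.70, adjusted p = 0.0384). In the first Tom+ injured library 716 of its 1115 UMIs lay in 1 cell. The call was lost with DESeq2 (adjusted p = 0.13), with the format of the deposited gene list as a term (0.052), and without steady library 1 (0.129) or injured library 2, 3 or 4 (0.077, 0.0801 and 0.0502), in a range of 9.78e-32 to 0.13 over 14 alternatives.

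Alpl was 21.5 and 106 CPM at steady state and 0 in each of the 4 injured libraries, which held 9377944 UMIs in lining cells. Against a floor of 3 UMIs over the injured group, the steady level was 222-fold higher. With only the first steady library set against that floor, it was 67.2-fold higher. All 7 Alpl UMIs of the first steady library and 45 of the 49 of the second lay in 1 cell each. These ratios thus described a very few steady cells and are not lower bounds for the class. The edgeR adjusted p was 0.0064, but the gene passed the low-count filter only through the steady libraries. The call is therefore not support for a fall. The gene no longer passed the filter without the second steady library, or when cells with the highest Scrublet doublet scores, or lining cells that also passed another gate, were left out.

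**Figure D4:**
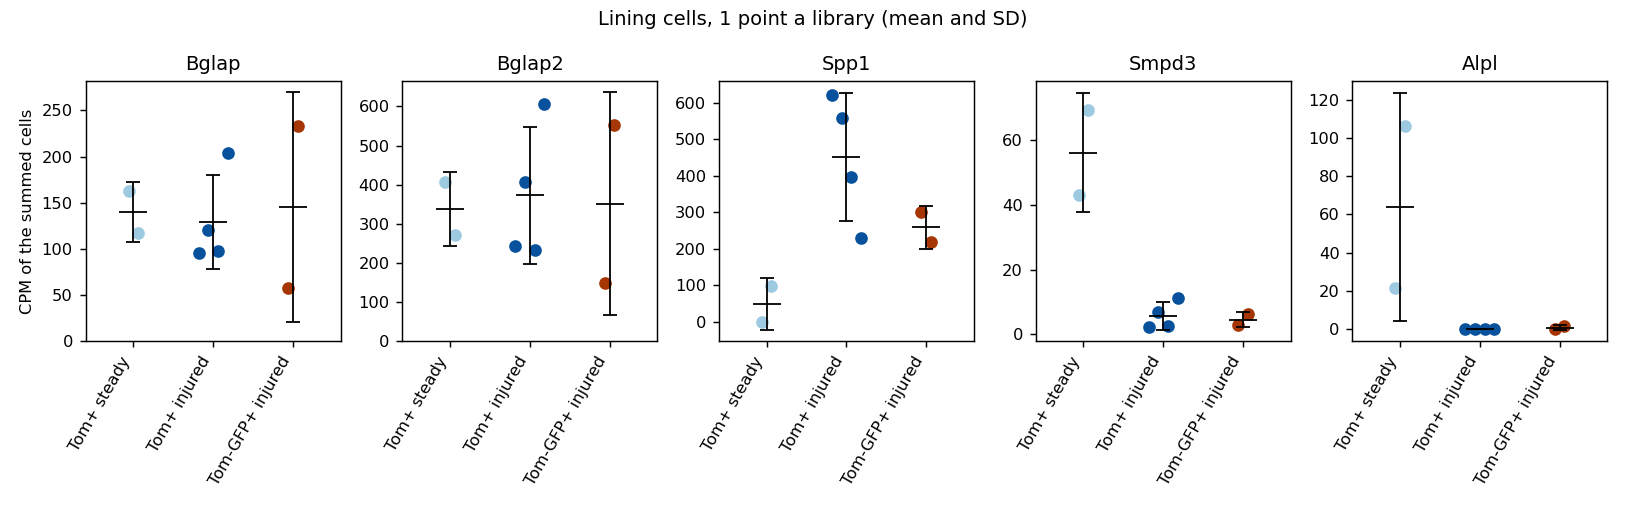
CPM in lining cells of Bglap, Bglap2, Spp1, Smpd3 and Alpl for Tom+ steady, Tom+ injured and Tom-GFP+ injured libraries. Points are libraries, and the bar with whiskers is the mean ± SD. Bglap overlaps between Tom+ steady (117 and 163 CPM) and Tom+ injured (96.0 to 204 CPM) libraries, while Smpd3 and Spp1 separate.

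Of 18 other genes of bone matrix and mineral, listed with earlier results known, 11 were tested in lining cells. Over all genes tested, 3.72% were called. Col1a1, a chain of type I collagen, rose by 0.77 on the log2 scale (adjusted p = 0.0246), from 1020 and 1070 CPM to between 1600 and 1870 CPM. Mgp, an inhibitor of mineralisation, fell by 3.49 (adjusted p = 0.0064), from 178 and 662 CPM to between 24.7 and 57.5 CPM. In both genes the groups were separate. Phospho1, a phosphatase of matrix vesicles, had a log2 fold change of -1.78 (adjusted p = 0.0611), and Bglap3 one of -1.54 (adjusted p = 0.289). The median over the 11 was -0.64.

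In Thy1+ fibroblasts of the synovial sublining, the bone genes were low and moved in different directions. Between Tom+ injured and Tom+ steady libraries 1563 of 12195 genes were called, or 12.8%, and 3677 had an unadjusted p under 0.05. Of 7 bone genes tested, Spp1 rose, Ibsp and Smpd3 fell and the other 4 were not called. Dmp1 and Ifitm5 were too low to be tested. The median log2 fold change was -2.07 over the 7 and -0.03 over all genes.

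Smpd3 was 13.2 and 23.4 CPM at steady state and 0.532, 2.07, 0.398 and 0.371 CPM after injury. The groups were far apart, and the gene fell by 4.40 on the log2 scale (SE 0.56, adjusted p = 0.00281). The call held under every alternative run, including each library left out in turn. The UMIs came from 18 and 30 cells in the steady libraries and from 1 to 4 in the injured ones.

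Spp1 was 18.4 and 81.3 CPM at steady state and 717, 181, 272 and 271 CPM after injury, without overlap, and rose by 2.81 (SE 0.74, adjusted p = 0.0364). Ibsp was 74.1 and 134 CPM at steady state and 4.08, 44.5, 2.78 and 9.29 CPM after injury, and fell by 2.80 (SE 0.81, adjusted p = 0.0498). Both calls were fragile. The Spp1 call was lost without steady library 1 or 2 (adjusted p = 0.203 and 0.0643) or injured library 3 (0.0572), and with 2 or more Thy1 UMIs required (0.122), in a range of 4.09e-23 to 0.203 over 14 alternatives. The Ibsp call was lost without steady library 1 or 2 (adjusted p = 0.136 and 0.251), without injured library 3 or 4 (0.0893 and 0.0797), with DESeq2 (0.0998) and with the stricter cell filter (0.051), in a range of 4.69e-27 to 0.251. The steady Ibsp UMIs were concentrated, with 48 of 129 and 83 of 276 in 1 cell.

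Phex was 14.9 and 6.81 CPM at steady state and 0, 0.889, 3.58 and 2.97 CPM after injury, with a log2 fold change of -2.77 (SE 0.86, adjusted p = 0.0626). The groups did not overlap but the gene was not called, although 7 of 14 alternatives called it, among them DESeq2 (adjusted p = 0.0375) and the fit without injured library 1 (0.0305), in a range of 2.27e-07 to 0.346. Alpl, with 38.5 and 19.9 CPM against 0.886, 19.3, 3.98 and 4.46 CPM, had -2.07 (adjusted p = 0.114, and 0.0201 without injured library 2, in a range of 4.1e-08 to 0.459). Bglap had -0.71 (adjusted p = 0.489) and Bglap2 0.36 (adjusted p = 0.686), each with overlapping groups.

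**Figure D5:**
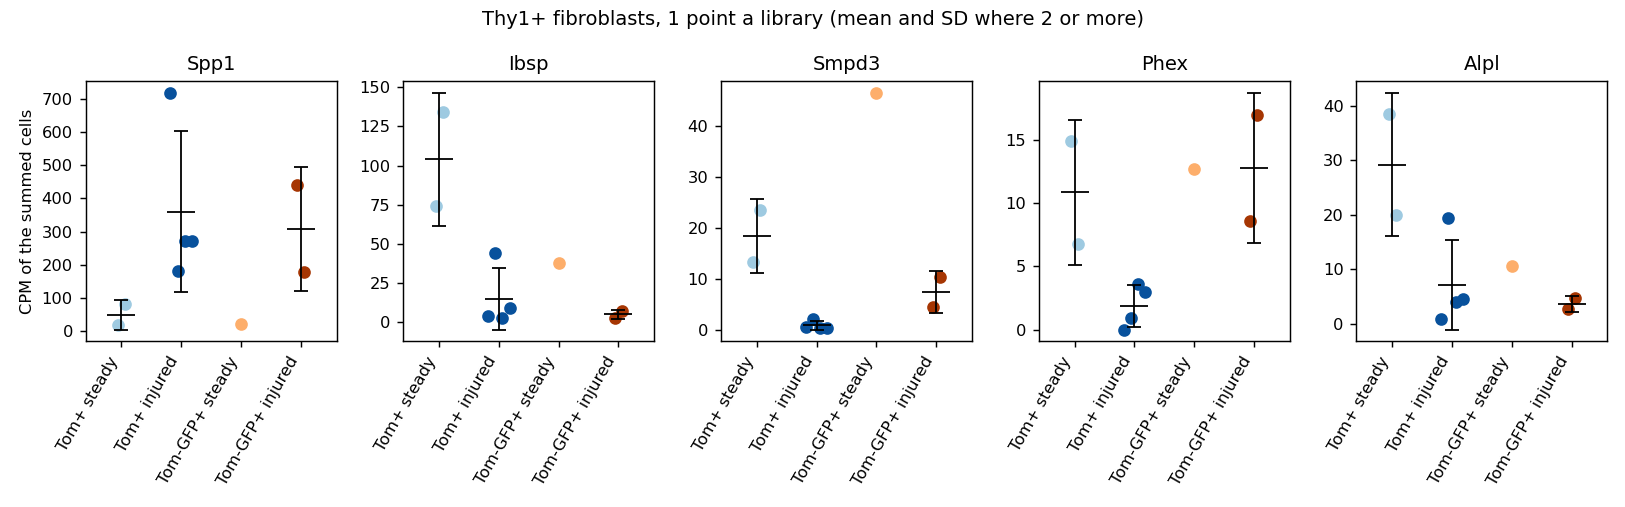
CPM in Thy1+ fibroblasts of Spp1, Ibsp, Smpd3, Phex and Alpl in the 4 groups. Points are libraries, and the bar with whiskers is the mean ± SD where a group has more than 1 library. Smpd3 falls to between 0.371 and 2.07 CPM in Tom+ injured libraries, below the other groups.

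Of the 18 further genes, 13 were tested in these cells, with a median of 0.41. Over all genes tested, 12.8% were called. Col1a1 (log2 fold change 2.32), Col1a2 (1.59), Sparc (1.10) and Enpp1 (3.46) rose, with adjusted p of 0.00163, 0.00365, 0.014 and 0.00868. Sparc encodes a collagen-binding matrix protein, and Enpp1 an enzyme that makes pyrophosphate, which holds back mineral. Omd, a matrix proteoglycan, fell by 2.34 and Fam20c, the kinase of secreted acidic proteins, by 1.25 (adjusted p = 0.00342 and 0.0194). Enpp1 was 19.0 and 9.24 CPM at steady state and between 63.9 and 278 CPM after injury.

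In Tom-GFP+ Thy1+ fibroblasts, 2 injured libraries were set against 1 steady library, whose spread was taken from the other groups, and 232 genes were called, or 1.9%, with 2479 at an unadjusted p under 0.05. None of the 7 bone genes was called. Spp1 was 21.8 CPM in the steady library and 439 and 177 CPM in the injured ones (log2 fold change 3.78, adjusted p = 0.103), and Smpd3 was 46.4 CPM against 4.43 and 10.3 CPM (-2.76, adjusted p = 0.0526). Ibsp went from 37.7 to 2.87 and 7.22 CPM (-3.06, adjusted p = 0.239). Bglap was 0.455 CPM, from 1 UMI, against 4.43 and 10.8 CPM (3.83, adjusted p = 0.27), and Bglap2 3.64 against 10.4 and 21.7 CPM (2.05, adjusted p = 0.276). Of 9 alternatives, 5 called Smpd3 (adjusted p between 3.11e-07 and 0.261 over the 9) and 3 called Spp1 (8.64e-18 to 0.313), DESeq2 among them for both. Among the 13 further genes Col1a1 and Col1a2 passed the test as higher and Omd as lower after injury, on 1 steady library that is assumed to vary like the other groups. Without the first injured library 0 genes were called in all, and without the second 3.

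Whether injury acted differently by lineage was tested as an interaction, which called 1 gene (0.0082% of those tested, 276 at an unadjusted p under 0.05) and none of the bone genes. Its value for Bglap was -4.54 on the log2 scale (unadjusted p = 0.0379, adjusted p = 1). Between Tom+ and Tom-GFP+ injured Thy1+ fibroblasts 7 genes were called (0.0574%, 733 at an unadjusted p under 0.05), again none of the bone genes. Phex was 0, 0.889, 3.58 and 2.97 CPM in Tom+ and 8.60 and 17.0 CPM in Tom-GFP+ libraries. The groups did not overlap, and the log2 fold change was -2.93 (SE 0.82, unadjusted p = 0.00517, adjusted p = 0.408). Smpd3 had -2.94 (SE 0.62, adjusted p = 0.193), also without overlap, and DESeq2 called it (adjusted p = 0.0101, in a range of 1.48e-07 to 0.544 over 14 alternatives). The study's methods call the Tom-GFP+ mice matched to Tom+ mice, but which libraries belong together was not given in the sources used here. With the replicate number as a block 56 genes were called in place of 7, and Phex and Smpd3 were not (adjusted p = 0.065 and 0.0875).

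In the osteoblast-lineage class, where these genes are known to act, none of the 9 was called after injury, although all 9 were tested. Between Tom+ injured and Tom+ steady libraries 261 of 6379 genes were called, or 4.09%, with 1479 at an unadjusted p under 0.05. Of the log2 fold changes 7 were below 0, and their median was -1.45, against 0.04 over all genes. Alpl was 830 and 1040 CPM at steady state and 42.3, 200, 30.5 and 89.3 CPM after injury. These values were separate, with a log2 fold change of -3.31 (SE 0.91, adjusted p = 0.0644). Cells that also had cartilage markers were counted as osteochondral and not here, and the osteochondral class was not tested for injury. In that class the second Tom+ steady library and Tom+ injured libraries 1, 2 and 4 had 10 or more cells. There Alpl was 450 CPM against 873, 578 and 621 CPM. Smpd3 was 456 CPM against 227, 125 and 696 CPM, and Ifitm5 63.4 CPM against 109, 161 and 3.93 CPM.

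Bglap was 5200 and 2340 CPM at steady state and 305, 67.9, 5250 and 24.4 CPM after injury. The third injured library, whose level came from 1 cell, lay above both steady libraries, and the log2 fold change was -1.45 (SE 1.45, adjusted p = 0.603). Bglap2, at 4440 and 4060 CPM against 194, 151, 3200 and 32.5 CPM, had -2.28 (SE 1.24, adjusted p = 0.301). With the highest Scrublet scores left out, the changes were -4.56 and -4.88, with adjusted p of 0.0275 and 0.00726. Without the third injured library they were -4.73 and -4.98, with adjusted p of 0.0403 and 0.0134. Both calls thus depended on which cells and libraries were counted.

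Ibsp, at 3240 and 3350 against 547, 4840, 128 and 572 CPM, had a log2 fold change of -1.05 (adjusted p = 0.639). Smpd3 had -2.36 (adjusted p = 0.205) and Ifitm5 -2.17 (adjusted p = 0.193), each without overlap but on few UMIs. For Smpd3 these were 9 and 24 at steady state and 11, 4, 11 and 3 after injury. For Ifitm5 they were 11 and 56, then 34, 14, 21 and 0. Spp1 had -0.25 (adjusted p = 0.887), Dmp1 1.72 (adjusted p = 0.538) and Phex 1.46 (adjusted p = 0.624), each with overlap. The class was gated loosely. Cells with 3 or more markers were 16.7%, 27.5%, 10.5% and 11.8% of it in Tom+ injured libraries, against 40.0% and 37.0% at steady state. Median UMIs per cell there were 23840.5, 14423, 15311 and 13551 in Tom+ injured libraries, against 7940.5 and 7661.5 at steady state. Makeup and depth of the class thus both differed between states, and the part of either in the values was not tested.

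Of the further genes, 14 were tested in this class, with a median of -0.49. Over all genes tested, 4.09% were called. Of the 14, 5 were called as lower, 1 of which, Sp7, is a gate marker and is not read here. The others were Omd (log2 fold change -4.20, adjusted p = 0.00925), Phospho1 (-3.15, adjusted p = 0.015), Runx2 (-2.31, adjusted p = 0.0163) and Pth1r, the receptor for parathyroid hormone (-2.43, adjusted p = 0.0384). Phospho1 was 234 and 284 CPM at steady state and 19.1, 45.7, 39.6 and 8.12 CPM after injury, and Runx2 203 and 118 CPM against 28.7, 43.1, 15.2 and 32.5 CPM. The groups were separate for both genes. Alternatives for these single genes are not given here. The class gave 6 calls over all genes at the 3-marker gate and 85 with the gene list format as a term, in place of 261.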

How the data were processed

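All 9 libraries came from the 10x Genomics 5′ kit. The authors deposited raw UMI counts for each gene and barcode, made with Cell Ranger on GRCm38.p6 per the labels. The version was not given in the sources used here. Cells needed 500 genes, 1000 UMIs and a mitochondrial share of 10% or less, and the stricter filter 1000 genes and 5%. No doublets were removed, and leaving out the highest 5% of Scrublet scores was an alternative. Each cell took the first marker gate it passed. UMIs were summed per class and library, where at least 10 cells were present, and tested with edgeR 4.0.16 (TMM, filterByExpr, quasi-likelihood test, Benjamini-Hochberg at 0.05) in 1 fit of all 4 groups. SEs are the fold change over the square root of F. DESeq2 1.42.0 was an alternative. Make-up was compared with an exact sign-flip permutation test. The scripts were tested on simulated data. The members, gates and lists were chosen with earlier results of these data known. The 4 settings with both osteocalcin genes counted together, or other sources for them, were added after seeing the data. Named genes were the 9, the further genes of the pathway that are described, and the 5 most like Bglap and Ibsp. Injury, age within the stated range and the older or newer format of the deposited gene list (older in the 3 steady libraries and the first Tom+ injured one) moved together in part.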

Additional observations from a re-analysis of the deposited data

Results flagged for a closer look

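In the 4 Tom+ injured libraries, 8 of 24 combinations of gene and class had a library far from the others by Dixon's test. Chance gives this in about 1 of 20 for normally distributed values, which these CPM need not be. A gene with UMIs in only 1 of the 4 libraries is always flagged, as Dmp1 was in lining cells and Thy1+ fibroblasts. The 8 flags therefore cannot be read as an excess over chance. In osteoblast-lineage cells Bglap was 5250 CPM and Bglap2 3200 CPM in the third library, against at most 305 and 194 CPM in the others, and Ibsp was 4840 CPM in the second, against 128 to 572 CPM. In Thy1+ fibroblasts Ibsp was 44.5 CPM in the second library (others 2.78 to 9.29 CPM), Spp1 717 CPM in the first (others 181 to 272 CPM), Smpd3 2.07 CPM in the second (others 0.371 to 0.532 CPM) and Dmp1 0.532 CPM in the first (others 0). In lining cells Dmp1 was 0.338 CPM in the second library, from 1 UMI, and 0 in the others.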

How the results depend on the processing

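Over 224 alternatives of 29 fold changes of single genes, not counting libraries left out, 174 kept their direction and side of the threshold, 36 passed it newly, 6 lost it and 8 turned sign. The sign changes were Ibsp (0.47) and Spp1 (0.94) in osteoblast-lineage cells gated at 3 markers and Spp1 there with the replicate block (0.46), Bglap2 in lining cells with the replicate block (-0.08) and with the gene list format as a term (-0.41), and Bglap2 in Thy1+ fibroblasts without high Scrublet scores (-0.01), with the format term (-0.36) and, in Tom-GFP+ libraries, at 2 Thy1 UMIs (-0.73). Leaving out 1 library gave -0.36 to 0.27 for Bglap and -0.15 to 0.58 for Bglap2 in lining cells, -1.52 to 1.09 for Bglap in Tom+ Thy1+ fibroblasts and -1.15 to 0.05 for Spp1 in osteoblast-lineage cells. The Bglap share in lining minus osteoblast-lineage cells was -3.96 to 6.55 percentage points without 1 library, -3.93 with Alpl and Spp1 as companions, -5.36 against failing barcodes, 48.0 without Bglap2, and, as alternatives chosen after seeing the data, 46.8 with Bglap2 counted together and 52.5 against all other cells. Without 1 library the value with both counted together was 37.3 to 55.8.

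Counts of genes called without the low-count filter were 987 in osteoblast-lineage, 1045 in lining and 2678 in Tom+ Thy1+ cells, and 1531 for the Tom-GFP+ injury, 400 for the lineages after injury and 52 for the interaction. With the gene list format as a term they were 85, 53, 379 (Tom-GFP+) and 14 (lineages). DESeq2 gave 420, 60 and 3 for the last 3 comparisons. The 3-marker gate gave 6 in osteoblast-lineage cells, 2 or more Thy1 UMIs gave 2 (lineages) and 0 (interaction), and leaving out high Scrublet scores gave 11 (lineages). Without 1 library the counts were 15 to 223 in osteoblast-lineage, 31 to 483 in lining, 199 to 1665 in Tom+ Thy1+ cells, 0 to 3 for the Tom-GFP+ injury, 1 to 22 for the lineages and 0 to 1 for the interaction. The cause of these moves was not tested. The replicate block gave 186 calls in lining cells and 56 for the lineages, and for osteoblast-lineage Bglap, Bglap2 and Dmp1 log2 fold changes of -4.38, -4.59 and 3.00 (adjusted p = 0.0426, 0.0145 and 0.0314). For Tom+ Thy1+ fibroblasts it gave Spp1 2.77 (adjusted p = 0.0521) and Phex -4.86 (0.0123). Samples with the same number correlated at 0.0717, 0.134, 0.251 and 0.0682 over 12195 genes, and the labels give only a number, while the study calls the lineages' mice matched without numbering them. The study counts steady and injured mice separately, so a shared number does not pair the states. The block results for the Tom+ injury are thus not paired tests. The block was not used for the Tom-GFP+ injury and the interaction because the steady Tom-GFP+ library has no number.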
